A study of Rattus norvegicus with 63 samples.

Results

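The pair described here is rno-miR-193 and rno-miR-365, 2 of the 350 miRNAs on a rat miRNA microarray that was hybridised with liver RNA of 63 rats. Both were found by their exact names in the scanner files and in the authors' value table. The pair was selected on values measured on these same arrays, with earlier results of them known. Its levels and differences are therefore given as a description, with no p for either member. Where a member is said to be called, its difference passed an adjusted p under 0.05 in limma. Unless another setting is named, the fit was over all 63 arrays. The adjustment was over the 162 miRNAs detected on at least 1 array. The share of those 162 that passed stands beside calls with the arrays as filed and as in the value table. It is not given for calls under other settings or with a rat left out.

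The animals were male Wistar Hanover rats of 8 to 10 weeks, dosed daily by gastric gavage. The study looked for liver signatures that separate non-genotoxic carcinogens (PB, PBO, DHEA, AA, MPy, Mcarb, DES and ETH) from genotoxic carcinogens (CIDB and DMN) and non-carcinogens (CFX and Nif), with CPA, TAA and WY undefined. There were 15 compounds and 6 control sets that received vehicle only, with 3 rats in each of these 21 groups. The labels state 5 dosed rats per group, of which 3 have an array here. Per the methods, treated rats were picked for arrays because their livers showed histological changes, and the RNA is that of whole liver tissue. Fewer cells of a type and less RNA per cell cannot be told apart in such tissue.

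Methylcellulose (MC) set 1 is the control of AA (Acetamide, 3000 mg/kg/d, 14 days), DHEA (Dehydroepiandrosterone, 600 mg/kg/d, 14 days), Mcarb (Methylcarbamate, 400 mg/kg/d, 14 days), MPy (Methapyrilene HCl, 60 mg/kg/d, 7 days), TAA (Thioacetamid, 19.2 mg/kg/d, 7 days) and WY (Wy-14643, 60 mg/kg/d, 3 days). MC set 2 is the control of CFX (Cefuroxime, 250 mg/kg/d) and Nif (Nifedipine, 3 mg/kg/d), both given for 14 days. MC set 5 is the control of DES (Diethylstilbestrol, 10 mg/kg/d, 3 days), ETH (Ethionine, 200 mg/kg/d, 14 days) and PBO (Piperonylbutoxide, 1200 mg/kg/d, 3 days). MC set 6 is the control of PB (Phenobarbital sodium, 14 days, dose not given in the labels). The corn oil (CO) set 3 is the control of CIDB (C.I Direct Black, 146 mg/kg/d) and DMN (Dimethylnitrosamine, 4 mg/kg/d), all of 7 days, and CO set 4 that of CPA (Cyproterone acetate, 100 mg/kg/d, 14 days). The methods name carboxymethyl cellulose as the vehicle of the compounds set against MC sets, and methylcellulose as that of the controls. Every MC set carries a label of 14 days, while the methods describe the controls as matched in time. Whether the 3-day and 7-day compounds set against MC sets had a control of their own duration is therefore not settled here.

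A miRNA is cut from a hairpin precursor and guides the silencing of mRNAs that pair with its seed, the bases near its 5′ end. Genes of miR-193 and miR-365 lie next to each other in mammalian genomes and can be made from a shared primary transcript. Members of these families are known for a role in brown fat cell differentiation, and both have been described as restraining proliferation, miR-193a-3p through targets such as Mcl1 and miR-365 through targets such as cyclin D1.

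The mature sequences are shown because the pair shares a locus but not a seed. They are RefSeq's for the rat assembly GRCr8, written 5′ to 3′ with the seed (bases 2 to 8) in capitals. The names on the array give no arm and the files hold no probe sequences, so the match of rno-miR-193 to miR-193a-3p and of rno-miR-365 to miR-365-3p rests on the names. The third line is a relative that has no probe of its own name on the array.
rno-miR-193a-3p: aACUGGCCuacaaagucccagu
rno-miR-365-3p: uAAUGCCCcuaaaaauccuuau
rno-miR-193b-3p: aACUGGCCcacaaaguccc

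The first lies at chr10:65170370-65170391 and the second at chr10:65184271-65184292, both on the plus strand. Their hairpins, Mir193 and Mir365b, are 13814 bases apart, and RefSeq's protein-coding gene Faul2 spans both. Among the 693 mature rat miRNAs of the table, only miR-193b-3p shares the seed of miR-193a-3p, and none shares that of miR-365-3p. miR-193b-3p, at chr10:1824994-1825012 on the plus strand, differs from miR-193a-3p over their common 19 bases by U9C alone, counted from the 5′ end. Whether the rno-miR-193 probes also take signal from miR-193b-3p was not tested.

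Both members were measurable throughout. Each has 2 probes in 20 spots, and both were detected and well above background on 63 of 63 arrays. The arrays lay on 9 slides that were scanned on 3 days with 30, 28 and 5 arrays. Median spot brightness ran from 193.5 to 243.5 units on the first day, from 140 to 153.5 on the second and from 75 to 78 on the third. Between 81 and 151 miRNAs were detected per array and no spot was saturated.

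One disagreement within the deposited data decides to which compound the main pattern of this pair belongs. Of the 63 columns of the authors' value table, 48 follow their own scanner file and 15 follow the file of another group. The table's DES columns follow the arrays filed as DHEA (r from 0.950 to 0.964 over 71 miRNAs detected on all arrays, against -0.050 to 0.249 with the arrays filed as DES). Its DHEA columns follow the arrays filed as DES (r of at least 0.842). The table's MC set 1 follows the arrays filed as set 5, its set 5 those filed as set 2, and its set 2 those filed as set 1. The labels do not settle which assignment is right, so values are given with the arrays as filed and, where it differs, with the arrays as in the value table.

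Levels below are log2 of the mean spot brightness after quantile normalization between arrays, with no background subtracted. rno-miR-193 was highest on the 3 arrays filed as DHEA, at 10.18, 10.25 and 10.47. Their mean was 10.30 ± 0.15 (SD, n = 3), and the next group, MC set 1, had 9.20 ± 0.36. The gap of 1.10 was larger than the spread of either group, and none of the other 60 arrays reached 10.18. MC set 1 held the next highest single array at 9.60, beside 8.91 and 9.08 for its other rats. The value table lists the 3 high arrays as DES and this control set as MC set 2.

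Below these, the group means of rno-miR-193 formed a nearly continuous series. WY had 9.16 ± 0.05, Nif 9.09 ± 0.04, PBO 9.06 ± 0.06, CFX 9.06 ± 0.06, MC set 5 9.05 ± 0.09 and the arrays filed as DES 9.01 ± 0.15. PB had 8.95 ± 0.10, Mcarb 8.93 ± 0.18, MC set 2 8.90 ± 0.08, MC set 6 8.83 ± 0.02, AA 8.83 ± 0.14, TAA 8.82 ± 0.13 and DMN 8.76 ± 0.06. The low end held CO set 3 with 8.69 ± 0.11, CO set 4 with 8.66 ± 0.13, MPy with 8.66 ± 0.12, CPA with 8.63 ± 0.06, ETH with 8.59 ± 0.10 and CIDB with 8.33 ± 0.15 (SD, n = 3 for each group). Neighbours in this order differed by more than the larger of their SDs only at the top gap, between WY and Nif (0.07) and between ETH and CIDB (0.27).

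**Figure D1:**
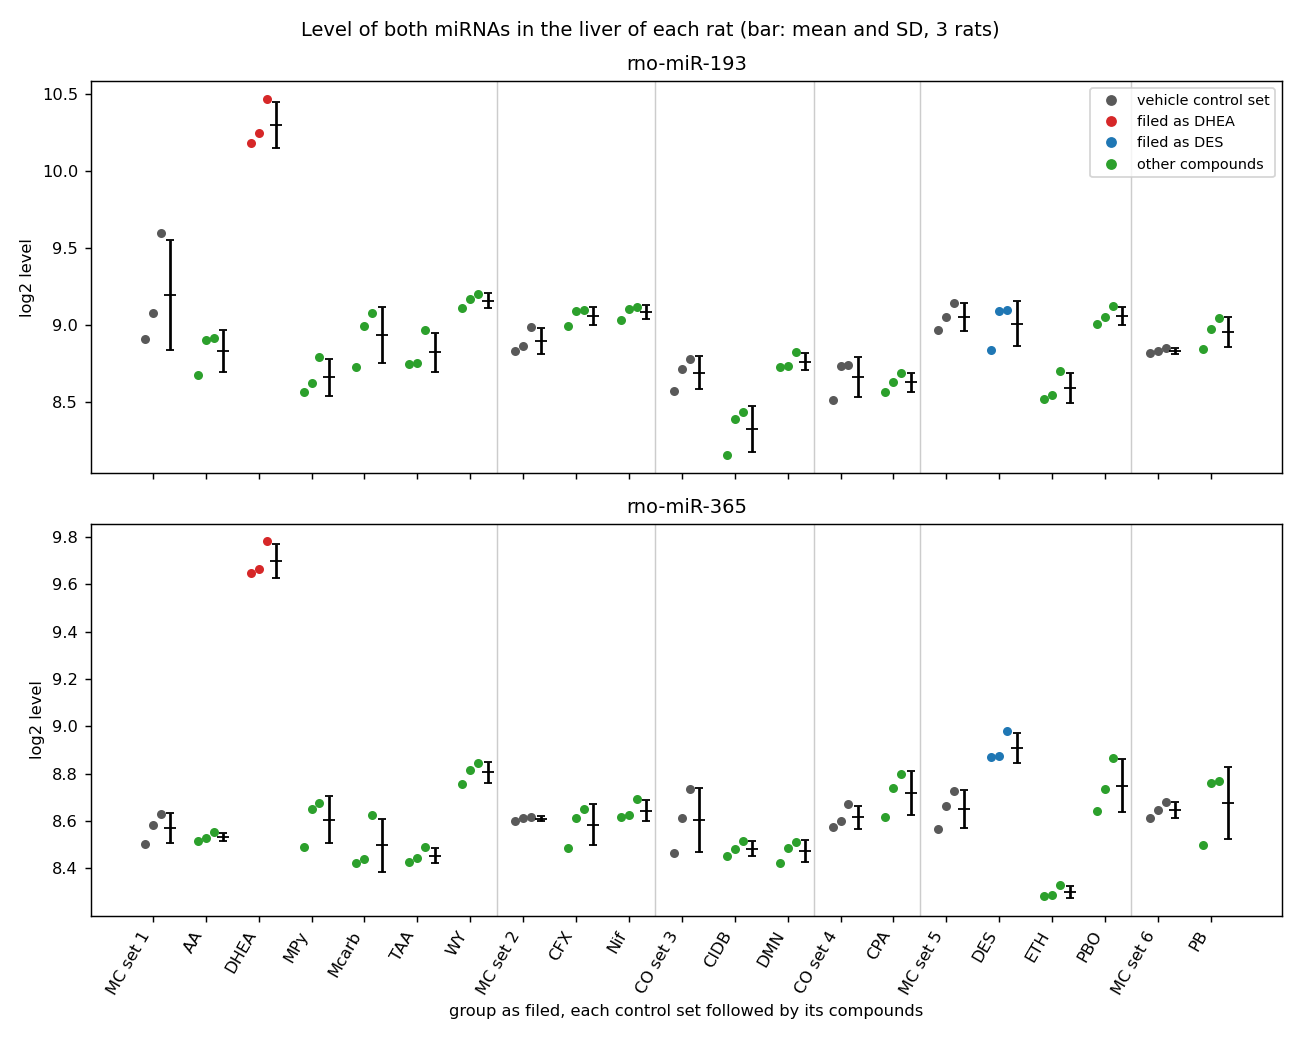
Level of each miRNA (vertical axis, log2 of normalised brightness) in every rat, by group as filed, with each control set followed by its compounds. Points are rats in order of level, and the black bar is the mean with the SD of 3 rats. The arrays filed as DHEA lie above all others in both panels, and CIDB is lowest for rno-miR-193 and ETH for rno-miR-365.

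rno-miR-365 was also highest on the arrays filed as DHEA, at 9.65, 9.66 and 9.78, with a mean of 9.70 ± 0.07 (SD, n = 3). The arrays filed as DES came next with 8.91 ± 0.06, a gap of 0.79. WY had 8.81 ± 0.04, PBO 8.75 ± 0.11, CPA 8.72 ± 0.09 and PB 8.68 ± 0.15. The 6 control sets lay close together, from 8.57 ± 0.06 in MC set 1 to 8.65 ± 0.08 in MC set 5. Between and just below them lay Nif with 8.64 ± 0.04, MPy with 8.61 ± 0.10, CFX with 8.58 ± 0.09, AA with 8.53 ± 0.02, Mcarb with 8.50 ± 0.11, CIDB with 8.48 ± 0.03, DMN with 8.47 ± 0.05 and TAA with 8.45 ± 0.03. ETH was lowest at 8.30 ± 0.02. Neighbours differed beyond the larger SD at the top gap, between the arrays filed as DES and WY (0.10) and between TAA and ETH (0.15), and nowhere else in the order.

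As filed, DHEA thus stood above its control set for both members. The log2 difference was 1.10 (SE 0.10) for rno-miR-193, a 2.15-fold higher level, and 1.13 (SE 0.06) for rno-miR-365, a 2.18-fold higher level. All 3 rats lay above all 3 rats of MC set 1. How many of the 162 miRNAs separated as completely was not counted, here or in the comparisons below. Separation alone therefore does not set the members apart from other miRNAs. Both members were called, where 18.5% of the 162 miRNAs were called, and by size rno-miR-365 ranked first and rno-miR-193 second of the 162. On the slide of these arrays lay also 2 rats of MC set 5, and against them the 3 arrays were higher by 1.20 for rno-miR-193 and 1.05 for rno-miR-365.

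With the arrays as in the value table the same 3 arrays are DES, and DES was higher than its control set by 1.40 (SE 0.10) for rno-miR-193 and 1.09 (SE 0.06) for rno-miR-365. These are 2.65-fold and 2.13-fold higher levels, called for both, where 17.9% of the miRNAs were called. DHEA then had -0.04 (SE 0.10) for rno-miR-193, with rats that overlapped the controls, and 0.26 (SE 0.06) for rno-miR-365, called beside 37% of the miRNAs. In the authors' own values the DES difference was 1.92 for rno-miR-193 and 1.68 for rno-miR-365. There the DES rats had 9.72, 9.84 and 10.09 for rno-miR-193 against 7.83, 7.91 and 8.15 in MC set 5.

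Both probes of each miRNA and each scaling tried showed the high level. With the arrays as filed, 1 of the probes of rno-miR-193, named A here, gave 0.76 and the other, B, gave 1.45, and the probes of rno-miR-365 gave 0.95 and 1.30. The scanner software's processed signal, from which background is subtracted, gave 1.46 and 1.78 when scaled over detected miRNAs. Median scaling in place of quantiles gave 0.86 and 1.01. Slide as a fixed block gave 1.31 and 1.10.

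**Figure D2:**
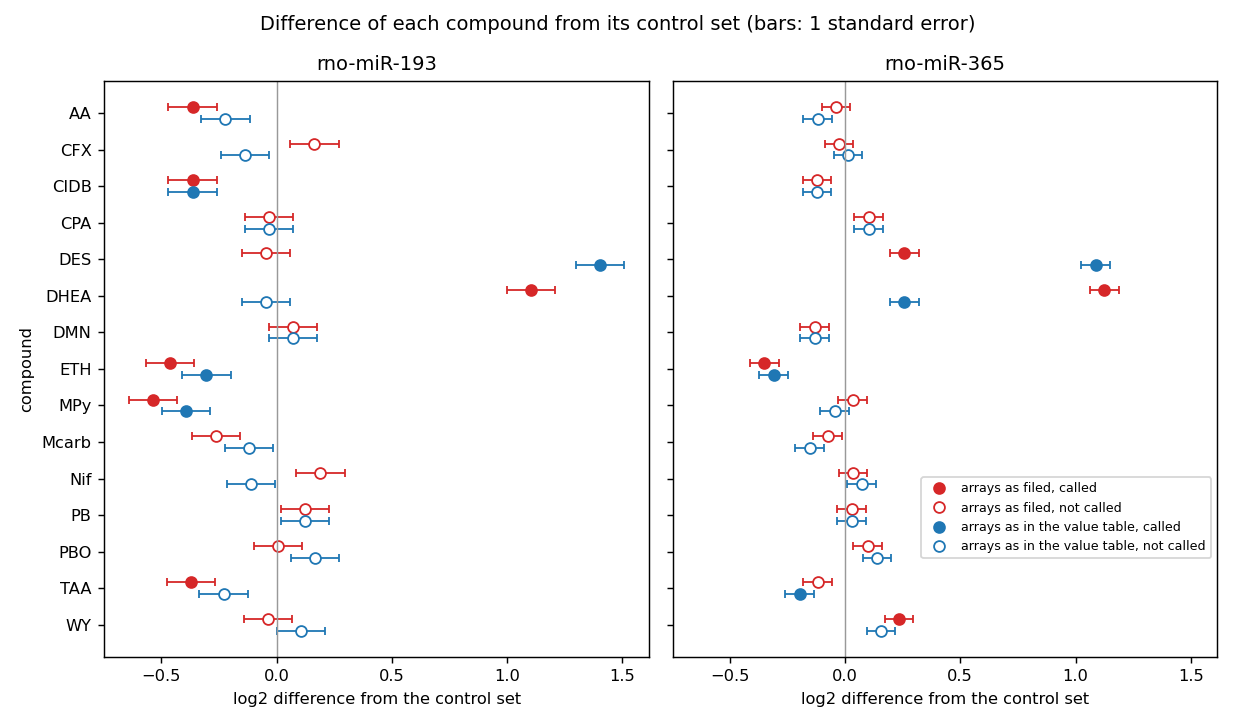
Log2 difference of each compound from its control set (horizontal axis) for both miRNAs, with bars of 1 standard error. Red shows the arrays as filed and blue the arrays as in the value table, and filled points were called. The point above 1 moves from DHEA to DES with the assignment, in both panels.

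ETH was the compound in which both members were called lower. Its rats had 8.52, 8.55 and 8.70 for rno-miR-193 against 8.97, 9.05 and 9.14 in MC set 5, and 8.28, 8.29 and 8.33 for rno-miR-365 against 8.57, 8.66 and 8.73. No rat overlapped the controls for either miRNA, and how many other miRNAs separated as completely was not counted. The differences were -0.46 (SE 0.10) and -0.35 (SE 0.06), both called, where 16% of the miRNAs were called. With the arrays as in the value table they were -0.30 (SE 0.10) and -0.31 (SE 0.06), both still called, beside 15.4% of the miRNAs. There ETH and its control set share a slide, so the same values are within-slide differences of 3 rats against 3. With slide as a fixed block and the arrays as filed, they were -0.55 and -0.40, and neither was called.

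In MPy, CIDB, AA and TAA only rno-miR-193 was called, lower in each. MPy had 8.56, 8.62 and 8.79 against 8.91, 9.08 and 9.60 in MC set 1, without overlap, a difference of -0.54 (SE 0.10) where 18.5% of the miRNAs were called. With the value table's assignment it was -0.39 and called, beside 12.3%. With slide as a block it was -0.20 and not called. Without MC set 1 replicate 5, the control rat at 9.60, it was -0.33 and still called. rno-miR-365 differed in MPy by 0.03 (SE 0.06), and the difference of rno-miR-193 minus that of rno-miR-365 was -0.57 (SE 0.12) as filed. With the value table's assignment rno-miR-365 had -0.05 (SE 0.06) beside -0.39 for rno-miR-193, a smaller gap between the members.

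CIDB, an azo dye, had 8.15, 8.39 and 8.43 for rno-miR-193 against 8.57, 8.72 and 8.78 in CO set 3, again without overlap. The difference was -0.36 (SE 0.10), where 20.4% of the miRNAs were called. Its assignment does not change with the value table, and the authors' values gave -0.91. Slide as a block gave -0.54, and the 1 CIDB rat on the slide of its controls had a difference of -0.54 from their mean. That rat is replicate 3, the lowest CIDB rat at 8.15, and both of these values rest on it. Under median scaling the direction turned to 0.19. The median of all tested miRNAs was then 0.15, so that rno-miR-193 was 0.04 above it. Without CIDB replicate 3 the difference was -0.28 and not called.

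AA had -0.36 (SE 0.10, with 13.6% of the miRNAs called) and TAA -0.37 (SE 0.10, with 21.6% called) for rno-miR-193. In both the rats overlapped with MC set 1 as filed. These calls depended on single rats. Without the control rat MC set 1 replicate 5, AA had -0.16 and TAA -0.17, and neither was called. Without AA replicate 2, AA had -0.29 and was not called. With slide as a block the directions turned to 0.06 in AA and 0.09 in TAA. Both of these values rest on AA replicate 3. Through this rat alone the slide of TAA, WY and the other AA rats is tied to the remaining slides. With the value table's assignment the differences were -0.22 in AA and -0.23 in TAA, not called, and the AA rats then lay below all controls. For rno-miR-365, AA had -0.04 (SE 0.06) as filed and -0.12 with the value table's assignment, where its rats lay below all controls. TAA had -0.12 (SE 0.06), with its 3 rats below all controls, and -0.20 with the value table's assignment, where it was called beside 7.41% of the miRNAs.

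rno-miR-365 alone was called higher in the arrays filed as DES and in WY, a peroxisome proliferator. Both groups were scanned on the first day, while MC set 5 and MC set 1 were scanned on later days. Neither group shared a slide with its controls. With slide or scan day as a block, rno-miR-365 was called in fewer compounds, as given in the closing section. The arrays filed as DES had 8.87, 8.87 and 8.98 against 8.57, 8.66 and 8.73 in MC set 5, a difference of 0.26 (SE 0.06), where 37% of the miRNAs were called. The 2 probes disagreed here: probe A gave 0.00 and probe B 0.51. WY had 8.76, 8.82 and 8.84 against 8.51, 8.58 and 8.63 in MC set 1, a difference of 0.23 (SE 0.06), where 25.9% were called. With the value table's assignment WY had 0.15 and was not called. Under median scaling both turned direction, to -0.14 for the arrays filed as DES and -0.13 for WY. rno-miR-193 also came out lower with that scaling in both comparisons, as given below, so the shift was not particular to rno-miR-365. rno-miR-193 differed by -0.04 (SE 0.10) in each of these, with a direction that depended on the setting. In WY it ran from -0.46 with median scaling to 0.43 with slide as a block, and it was 0.11 with the value table's assignment and 0.16 without MC set 1 replicate 5. On the arrays filed as DES it was -0.40 with median scaling and 0.10 with slide as a block. These 2 slide-block values rest on 1 rat each, AA replicate 3 for WY and CIDB replicate 3 for the arrays filed as DES. No other rat ties their slides to the rest.

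In the other 7 compounds neither member was called. For rno-miR-193 they ran from -0.26 in Mcarb to 0.19 in Nif, and for rno-miR-365 from -0.13 in DMN to 0.10 in CPA. The shares of miRNAs called were 1.85% in Mcarb, 5.56% in CPA, 23.5% in DMN, 3.09% in PB and 8.64% in PBO. They were 0% in CFX and Nif with limma, also with the authors' values, while 1 and 20 of the 162 miRNAs had an unadjusted p under 0.05. The CFX and Nif rats had rno-miR-193 above all rats of MC set 2 as filed, by 0.16 and 0.19, and with the value table's assignment they had -0.14 and -0.11 and overlapped the controls. Without MC set 1 replicate 6, rno-miR-193 in Mcarb had -0.40 and was called, and without MC set 1 replicate 5 it had -0.06 and was not. Without CO set 3 replicate 6, rno-miR-365 had -0.19 in CIDB and -0.20 in DMN and was called in both.

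**Figure D3:**
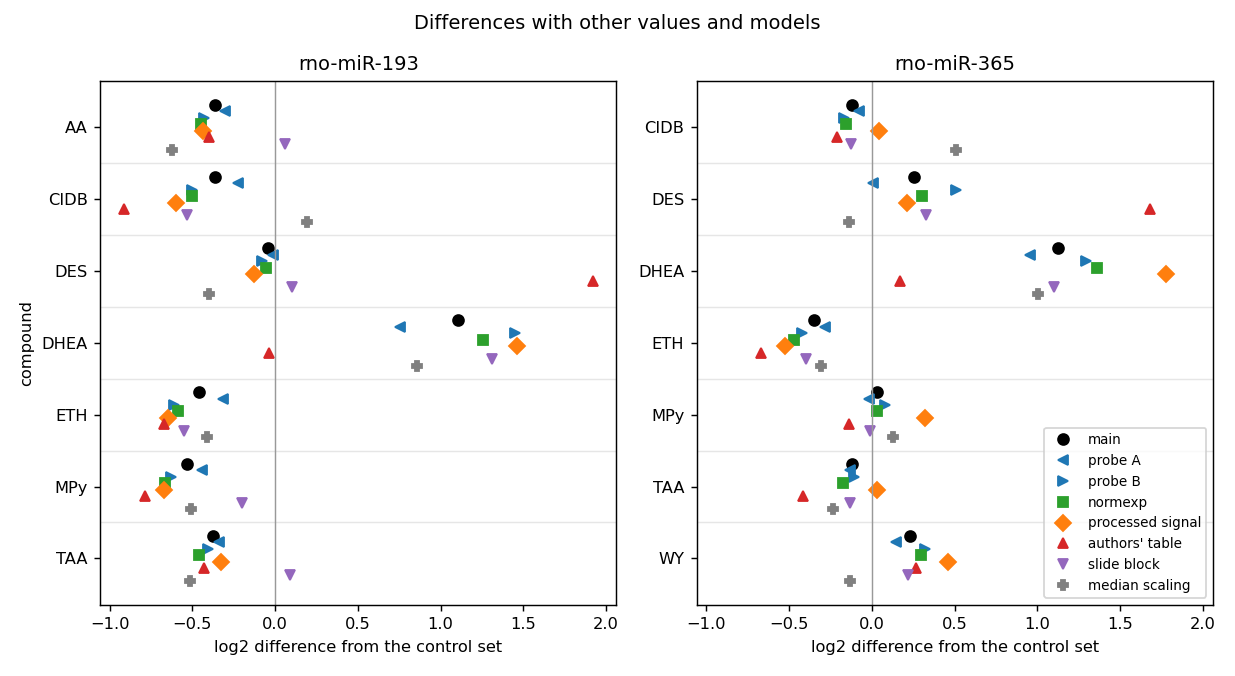
Log2 difference from the control set (horizontal axis) for 7 compounds per miRNA, with the arrays as filed. Each marker is another kind of value or model, and the authors' table carries its own assignment of arrays. Points of 1 compound on both sides of 0 show where a direction depends on the choice, as for CIDB in both panels.

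The control sets alone show how far rno-miR-193 varied without any compound. The mean of both CO sets minus that of the 4 MC sets was -0.32 (SE 0.06), a difference that was called where 34% of the miRNAs were called between vehicles. With scan day as a block it was -0.25. No miRNA was then called by limma, with 15 of 162 at an unadjusted p under 0.05. Both CO sets were scanned on the first day, of the MC sets only set 6 was, and within that day CO set 3 and CO set 4 differed from MC set 6 by -0.14 and -0.17 (SE 0.10). MC set 1 lay 0.36 (SE 0.10) above MC set 6, as far as AA lay below MC set 1. These 2 sets were scanned on different days, and with scan day as a block that difference was 0.26. For rno-miR-365 no 2 control sets were more than 0.08 apart (SE 0.06), and the CO sets differed from the MC sets by -0.01 (SE 0.04).

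Against all 12 MC rats or all 6 CO rats of the vehicle, DHEA as filed had 1.31 for rno-miR-193 and 1.08 for rno-miR-365, and ETH had -0.40 and -0.32. MPy had -0.33 and CIDB -0.35 for rno-miR-193. AA had -0.16 and TAA -0.17 for rno-miR-193, smaller than against MC set 1 alone. For rno-miR-365, DMN had -0.14, PBO 0.13 and TAA -0.17.

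**Figure D4:**
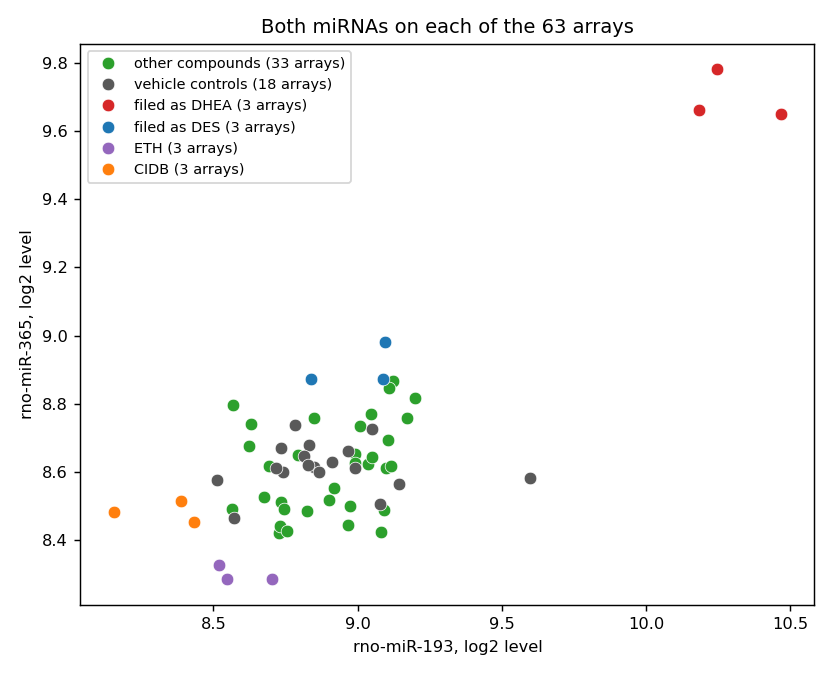
Log2 level of rno-miR-193 (horizontal axis) against that of rno-miR-365 (vertical axis) on each of the 63 arrays. The 3 arrays filed as DHEA stand alone at the upper right, and ETH and CIDB rats lie at opposite sides of the lower left.

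Across rats the members moved together less than across the extreme groups. Because the 3 high arrays stand apart, no correlation over all arrays is given. Over the other 60 arrays the levels had Pearson r = 0.41 and Spearman rho = 0.43, and over the 18 control arrays r = 0.01 and rho = -0.07. The value over the control arrays depended on the signal used, since the processed signal gave r = 0.41 and rho = 0.52 over the same 18 arrays. After group means were removed, r was 0.07 and rho 0.08 over 63 arrays, with r = 0.24 within the first scan day and 0.04 within the second. Arrays share slides and scan days, and these values are descriptions. Of 10 other pairs from a common locus, 6 could be measured. After group means were removed, their r was 0.93 for miR-144 and miR-451, 0.71 for miR-23b and miR-27b, 0.60 for miR-106b and miR-25, 0.46 for miR-29b and miR-29c, 0.27 for miR-192 and miR-194 and 0.15 for miR-99a and let-7c.

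Over the 21 group means, each member was the closest match of the other among 70 miRNAs detected on all arrays (r = 0.85). Without the arrays filed as DHEA this r was 0.48, and 13 miRNAs were then closer to rno-miR-193 and 11 closer to rno-miR-365. After rno-miR-365, the group means most like those of rno-miR-193 were those of miR-30e (r = 0.62), miR-30d (0.61), miR-378 (0.60) and miR-30c (0.55). Over the 20 groups without those arrays they had 0.81, 0.57, 0.92 and 0.51. The least alike were let-7c (-0.64), miR-21 (-0.55) and miR-16 (-0.47), which had -0.13, -0.49 and -0.40 over those 20 groups. For rno-miR-365 the closest after rno-miR-193 were miR-30d (0.67), miR-29b (0.59), let-7f (0.48) and miR-335 (0.46), and the least alike were miR-99a (-0.55), miR-21 (-0.51) and miR-27a (-0.49). Over the 20 groups the 4 closest had 0.77, 0.31, 0.29 and 0.33 and the 3 least alike -0.06, -0.44 and -0.77. The closest to rno-miR-365 were then miR-107 (0.79), miR-30d, miR-103 (0.76) and miR-361 (0.75).

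The other product of the Mir193 hairpin on the array is rno-miR-193*, the name that matches miR-193a-5p, with 4 probes in 20 spots. It was near the limit of detection. It was detected on 13 arrays, of which 2 were among the 18 control arrays, and it was well above background on 3. The arrays filed as DHEA were 1 of 2 groups with 3 of 3 rats detected, the other being CFX, and had the highest mean level of rno-miR-193*, 7.51 ± 0.02 (SD, n = 3). The means of the other groups lay between 7.40 and 7.44. No other product of Mir193 or of Mir365b is named on the array.

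Markers of liver cell types changed in some of the same groups and in others, and their part in the results was not tested. The comparisons use the arrays as filed unless another assignment is named. All 4 hepatocyte markers were measured, and their mean log2 level per array was 10.45 to 10.54 on the arrays filed as DHEA against 10.59 to 10.62 in MC set 1. Of the 4, only rno-miR-192 was called there, with -0.36. None of 5 leukocyte, 2 endothelial, 4 stellate and smooth muscle, 5 biliary epithelial and 2 erythroid markers was called on these arrays. In ETH, rno-miR-192 with -0.66 and rno-miR-194 with -0.55 were called lower, and the hepatocyte mean was 10.29 to 10.30 against 10.56 to 10.67 in MC set 5. The leukocyte mean in ETH was 8.10 to 8.12 against 7.95 to 7.97, with 3 of 5 markers called higher, led by rno-miR-142-3p with 0.32. With the value table's assignment MC set 5 had a hepatocyte mean of 10.64 to 10.66 and a leukocyte mean of 7.92 to 8.01. The arrays filed as DHEA are then set against it as DES. In CIDB, rno-miR-122 with -0.33 and rno-miR-192 with -0.50 were called lower, and 3 of 5 biliary epithelial markers higher, while rno-miR-223 of the leukocyte markers was called lower with -0.15. In MPy, rno-miR-194 was called lower with -0.32. Over all 4 hepatocyte markers the differences ran from -0.36 to 0.05 on the arrays filed as DHEA and from -0.66 to 0.00 in ETH. They ran from -0.50 to 0.03 in CIDB and from -0.32 to 0.00 in MPy. The stellate and smooth muscle marker rno-miR-143 was called with 0.19 in ETH, 0.18 in AA, -0.19 in TAA and -0.22 in WY. All 4 markers of that list ran from 0.03 to 0.19 in ETH and from 0.01 to 0.18 in AA. They ran from -0.19 to 0.04 in TAA and from -0.22 to -0.04 in WY. On the arrays filed as DES, rno-miR-192 with 0.26, rno-miR-148b-3p with 0.05 and rno-miR-429 with 0.08 were called higher, and rno-miR-142-3p with -0.52, rno-miR-142-5p with -0.08 and rno-miR-126* with -0.09 lower. Over whole lists the differences there ran from -0.14 to 0.26 for 4 hepatocyte and from -0.52 to 0.01 for 5 leukocyte markers. They ran from -0.09 to 0.13 for 2 endothelial and from 0.02 to 0.22 for 5 biliary epithelial markers. Markers were also called where neither member was. In DMN, 4 of 5 leukocyte markers were higher, led by rno-miR-142-3p with 0.76, and 3 of 4 stellate and smooth muscle markers lower. There rno-miR-122 with -0.09 and rno-miR-126 with -0.18 were lower too. In PB and PBO, 3 of 5 biliary epithelial markers were higher, led by rno-miR-200b with 0.48 and 0.69. PBO also had rno-miR-192 lower with -0.24. None of the 4 brown fat and muscle markers (rno-miR-133a, rno-miR-133b, rno-miR-206 and rno-miR-1) was detected on any array.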

How the data were processed

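Liver RNA of 63 rats was measured on 1-colour Agilent miRNA arrays. The deposited scanner files give spot intensities from Agilent Feature Extraction, before any normalization between arrays, per the file headers. The authors deposited a value table of log2 values of 135 miRNAs, for which the methods state RMA without background correction. The members and lists were chosen with earlier results of these data known.

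Control spots and flagged spots were left out. The mean intensity was quantile normalized, averaged per probe, log2 transformed and summarised by median polish. Without background subtraction, differences of dim miRNAs are understated. Compounds were set against the controls that their labels name by limma 3.58.1 in R 4.3.3, over 21 groups, with Benjamini-Hochberg adjustment. The fit was tested on simulated data. Each array is 1 rat. Named miRNAs are the members, the 5 others most and the 3 least alike in group means, listed clustered pairs and cell type markers. The labels state 25 ng of labelled RNA, and the methods another amount. Alternatives were the authors' table, the processed signal scaled by the 75th percentile, normexp with an offset of 50, median scaling, single probes, detection filters, slide, scan day or replicate blocks, pooled controls, pairwise models, the table's array assignment and leaving out each rat. Replicate numbers that PB shares with MC set 6 and CPA with CO set 4 do not pair the rats.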

Additional observations from a re-analysis of the deposited data

Results flagged for a closer look

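rno-miR-193*, outside the main comparisons, was detected in all 3 rats of 2 groups, with a mean log2 level above the highest control set mean of 7.43. The mean was 7.51 on the arrays filed as DHEA and 7.44 in CFX. The CFX mean exceeds the controls by about the SD of its rats, 0.01. The arrays filed as DES had the same mean of 7.44 with 0 of 3 rats detected. PB with 7.44 and Nif with 7.43 also had means slightly above that control set, with 1 of 3 rats detected in each, so the level alone does not set CFX apart. None of these differences was tested.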

How the results depend on the processing

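rno-miR-193 was called in 6 compounds and rno-miR-365 in 4 with the arrays as filed. The count for rno-miR-193 was 1 with median scaling, 2 with slide as a fixed block, 2 in models of only the groups compared and 3 with the value table's assignment and slide as a block. The count for rno-miR-365 was 2, 1, 4 and 2 in that order, 2 with scan day as a block and 7 against all controls of the vehicle. The share of all tested miRNAs called is not given for these other settings. A lower or higher count therefore cannot be read as a property of the members alone. Which slide effects enter these counts was not tested, and several compounds share no slide with their controls as filed. For AA, TAA, WY and the arrays filed as DES, the slide block rests on 1 linking rat. Leaving out 1 rat gave 4 to 7 compounds for rno-miR-193 and 4 to 6 for rno-miR-365. The directions that turned, of values that had been called, were those of rno-miR-193 in AA and TAA with slide as a block (0.0567 and 0.0916), in CIDB with median scaling (0.19) and in DHEA with the value table's assignment (-0.0449) and the authors' values (-0.0356), and of rno-miR-365 with median scaling in the arrays filed as DES (-0.14) and in WY (-0.13). The gap from the highest group mean to the next for rno-miR-365, 0.79, was 1.31 with the authors' values and 1.31 with the processed signal. For rno-miR-193 it was 1.10, 1.41 and 1.46. Of 516 single differences recomputed under other settings, 397 moved by less than 1 SD of the rats. Part of that count was fixed in advance. Detection filters and models of only the groups compared cannot change a difference, and the value table's assignment leaves some compounds as filed. The count of 397 is therefore no measure of robustness. With 1 rat left out 180 of 180 moved by less than 1 SD. Leaving out 1 of 3 rats cannot move a group mean by 1 SD, so that second count was fixed in advance and carries no information. A replicate block for PB and CPA left 0 calls of either member there, as without it, and same-numbered rats had correlations of -0.26 to 0.05, so the numbers give no pairing. Levels near background, as of rno-miR-193*, are limited by signal, and precision by 3 arrays per group.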
